A study of Mus musculus and synthetic RNA with 74 samples.

Results

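Single hairpins whose position 15 is paired on the closing strand were examined in a randomized RNA library methylated in vitro by METTL16. Each structure of the table is a predicted fold of a 30-nt RNA in dot bracket notation, where an opening bracket marks the 5′ partner of a pair, a closing bracket its 3′ partner and a dot an unpaired base. A structure was taken when it held exactly 1 hairpin loop, had a closing bracket at position 15, and had no 1-nt bulge at position 16 or 17. This rule used the predicted fold alone and no measured value, but it was chosen with earlier results of these data known. It held 2105 of the 36835 structures, and of the 32000 single hairpins.

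The RNAs carried a constant nonamer between random flanks of 11 and 10 nt, and were incubated with recombinant human full-length METTL16 and the methyl donor S-adenosylmethionine in 2 reactions numbered 11 and 12. Each reaction gave a library of its RNA before pull-down with an antibody against N6-methyladenosine (m6A) and a library of the RNA recovered by it. These 4 libraries are called input 11, input 12, m6A-IP 11 and m6A-IP 12 here. The 2 reactions held the same RNA library, so the spread between them covers the reaction, the immunoprecipitation and the sequencing, and p-values measure that spread only. No library of RNA incubated without METTL16 was analysed here, so recovery by the antibody in the absence of methylation cannot be told apart from methylation, nor can m6A at position 15 from m6A elsewhere in the 30 nt.

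METTL16 is a methyltransferase that places m6A on the U6 small nuclear RNA and on hairpins of the MAT2A mRNA, which encodes the enzyme that makes S-adenosylmethionine. In U6 and in the first of the MAT2A hairpins the methylated adenosine lies in the nonamer UACAGAGAA. In an RNA helix, an adenosine that is paired with a uridine and stacked between neighbouring pairs is held inside the stem, whereas bases in loops, bulges and tails are not held by a partner.

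In this library the nonamer took positions 12 to 20, with an adenosine at position 15. The sequences below show what the fold alone fixes, in the RNAs that the results turn on. Capitals mark paired positions, except in the library sequence, where the capital marks the adenosine at position 15. A random base is written as n, and the partner of an adenosine or a cytidine of the nonamer is filled in as U or G. Because position 15 is always A and lies on the closing strand, its partner was a U at one of positions 1 to 11 of the 5′ random flank. R1 to R5 are the members with the highest fold change among those enriched in m6A-IP, F1 to F5 those with the lowest among the depleted, and M1 to M3 the most abundant. H and L are the highest and lowest of the members with a mean value of at least 1000 over the 4 libraries.
library: nnnnnnnnnnnuacAgagaannnnnnnnnn
R1, ((.(.(.((....)).).).))........: NNnUnUnUGnnuaCAgAgAaNNnnnnnnnn
R2, .((((..((....))..))..)).......: nNNUNnnUGnnuaCAgaGAanNNnnnnnnn
R3, .((((.(.((...)).)..)))).......: nNNNUnUnUGnuaCAgAgaANNNnnnnnnn
R4, (.(.((((...)))).).)...........: UnUnUGUNnnnUACAgAgAannnnnnnnnn
R5, ((...((......))......)).......: NNnnnUGnnnnuaCAgagaanNNnnnnnnn
F1, .(..(((((...)))))...).........: nNnnUNUGUnnuACAGAgaaNnnnnnnnnn
F2, ((((((..(((...)))..)))))).....: NNNNNUnnUNUuacAGAgaANNNNNnnnnn
F3, ((((.((((....)))))))).........: NUUNnUNUGnnuaCAGAGAANnnnnnnnnn
F4, ..(((.(((((...))))).))).......: nnNNNnUNUNUuacAGAGAaNNNnnnnnnn
F5, ..((((((.((...)).)))))).......: nnNNNUUNnNUuacAGaGAANNNnnnnnnn
M1, ....(((......)))..............: nnnnNUGnnnnuaCAGagaannnnnnnnnn
M2, ......(((....)))..............: nnnnnnNUGnnuaCAGagaannnnnnnnnn
M3, ..(((........)))..............: nnNUGnnnnnnuaCAGagaannnnnnnnnn
H, (.(((((...))))).).............: UnUGUNNnnnNUACAgAgaannnnnnnnnn
L, ((((((......))))))............: NUNUGUnnnnnuACAGAGaannnnnnnnnn

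Values are normalized reads, that is, reads summed over every RNA of a fold and divided by a size factor of the library. The step between values gave the reads themselves, which over the structures of the table came to 20454163 and 18106811 in input 11 and input 12, 22118622 in m6A-IP 11 and 1154715 in m6A-IP 12. Each library held further filtered reads outside the table, which enter no value here. A member had a median of 132, 117, 130 and 7 reads in these libraries. In m6A-IP 12, 43 members had no read and 736 had fewer than 5, so the values of this library were coarse. The 10 most abundant members held 26.4% of the input value of all members and the 100 most abundant held 68.2%, so sums over members are set mainly by short, common hairpins.

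Hairpins with position 15 on the closing strand were less abundant after the immunoprecipitation than before it. Their share of the reads in the table was 9.27% (95% Wilson interval 9.25% to 9.28%) and 9.26% (9.24% to 9.27%) in input 11 and input 12. It was 8.46% (8.45% to 8.47%) and 8.37% (8.32% to 8.42%) in m6A-IP 11 and m6A-IP 12, and these intervals cover counting error only. The log2 of the summed m6A-IP value over the summed input value was -0.19 in reaction 11 and -0.55 in reaction 12. The same ratio over all other structures was -0.05 and -0.39. Against these, the members were lower by a log2 difference of -0.14 in reaction 11 and -0.16 in reaction 12. In the exact permutation test over the 4 libraries (two-sided) this gave p = 0.333, the smallest p that 2 against 2 libraries allow. No comparison of summed values could therefore reach 0.05, and all those below had this p unless another is given.

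Structure by structure, 181 members were enriched in m6A-IP (8.60%) and 716 were depleted (34.0%), by limma's moderated test at an adjusted p below 0.1, against 12.5% and 27.2% of all 36835 structures. All 181 and all 716 had both m6A-IP values on the same side of both input values, which held for 442 members above and 1169 below whether called or not. The log2 fold change of a member ranged from -2.81 to 2.46 with a median of -0.41, and that of all structures had a median of -0.27. With totals of the table used for scaling, and no size factors, these medians were -0.20 and -0.06. Then 420 members were enriched (20.0%) and 661 depleted (31.4%), against 22.5% and 24.8% of all structures. All 32000 single hairpins lay closer to the members than the whole table did, with 9.48% enriched, 30.8% depleted and a median of -0.36, and with 18.6% and 28.1% when scaled to totals. Relative to single hairpins the members thus had a higher depleted share under both scalings, and a lower enriched share under size factors but a higher one under totals. The counts moved with single libraries. Without input 11 there were 29 enriched and 154 depleted members, where 2.36% and 5.71% of all structures were called, and without input 12 there were 27 and 150, against 2.32% and 5.41%. Without m6A-IP 11 there were 377 and 1337, against 22.9% and 56.0% of all structures, and without m6A-IP 12 there were 546 and 1043, against 30.4% and 41.1%.

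Members with many reads gave closely matched values in both reactions. Depth was taken as the mean value over all 4 libraries, so the m6A-IP values enter it. Among the 122 members with a mean value of at least 1000, the log2 ratios of the 2 reactions differed with an SD of 0.14 about a median of 0.35. Of these 122 members 2 were enriched (1.64%) and 61 depleted. Of all 1243 structures at this depth 11.1% were enriched and 42.8% depleted. Scaled to totals, 38 of the 122 were enriched and 67 depleted, against 35.1% and 50.4% of all structures at this depth. The SD was 0.46 in the 1081 members with a mean from 50 to 1000, of which 113 were enriched and 441 depleted (10.5% and 40.8%, against 14.5% and 34.7% of all structures at this depth). It was 0.82 in the 902 members below 50, of which 66 were enriched and 214 depleted (7.32% and 23.7%, against 10.7% and 18.8%).

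The most abundant members were the 3-pair hairpins M1, M2 and M3, in which C14, A15 and G16 form the closing strand and the loop has 6, 4 and 8 nt. M1 had values of 41054 and 40835 in input and 46877 and 35542 after m6A-IP. M2 had 36230 and 36051 against 38829 and 29942, and M3 had 30481 and 30350 against 38921 and 29865. In each of the 3 the m6A-IP value of reaction 11 lay above both input values and that of reaction 12 below them, so the groups overlapped. Their log2 fold changes were -0.004, -0.08 and 0.16, with adjusted p of 0.99, 0.81 and 0.63 in limma's test. This depended on the scaling, since with libraries scaled to totals all 3 passed as enriched, with log2 fold changes of 0.23, 0.15 and 0.40 (adjusted p of 0.00068, 0.0011 and 6.2e-05 in limma's test).

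The side of the pair of position 15 that faces the open end of the stem, the step from A15 to G16 of the nonamer, was taken first. In 1610 members position 16 was paired directly beside it on both strands (a stacked step). In 463 members unpaired bases stood between this pair and the next one (a broken step), which was an interior loop with unpaired bases on both strands in 402, a bulge of the 5′ strand in 58 and a bulge of the 3′ strand in 3. In the remaining 32 the pair of 15 was the last of the stem. Among members with a broken step 112 were enriched (24.2%) and 51 depleted (11.0%). Among those with a stacked step 67 were enriched (4.16%) and 656 depleted (40.7%). Of the 32 members with a stem end at 15, 2 were enriched (6.25%) and 9 depleted (28.1%). Scaled to totals, 202 broken members were enriched (43.6%) and 46 depleted (9.94%), and 200 stacked members were enriched (12.4%) and 607 depleted (37.7%). The background over all structures was 12.5% and 27.2%, and 22.5% and 24.8% when scaled to totals, so the broken members lay above it in enrichment and below it in depletion, and the stacked members the other way round, under both scalings. The stem-end members lay below it in enrichment with size factors and above it with totals. Their depleted share was near it under both.

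In summed values the log2 ratio was 0.30 in reaction 11 and -0.09 in reaction 12 for broken steps, 0.18 and -0.19 for a stem end at 15, and -0.28 and -0.63 for stacked steps. The broken members were thus higher than the stacked ones by 0.58 in reaction 11 and 0.54 in reaction 12, and the stem-end members higher than the stacked ones by 0.47 and 0.44. The mean difference between broken and stacked, 0.56 ± 0.02 (SD, n = 2 reactions), was larger than the spread between the reactions. Taken as the median over structures, each with the same weight, it was 0.73 and 0.71. Stem-end and broken members differed by -0.11 in both reactions. At a mean value of at least 1000, 0 of 14 broken members were depleted and 1 was enriched, and 59 of 96 stacked members were depleted and 1 was enriched, where 11.1% of all structures were enriched and 42.8% depleted. Scaled to totals, 9 of the 14 were enriched and 0 depleted, and 21 of the 96 were enriched and 65 depleted, where all structures gave 35.1% and 50.4%. The cut at 1000 used the m6A-IP values too, so an enriched structure passed it at lower input than a depleted one. The 1 broken member enriched with size factors was H, with 726 and 733 in input.

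The calls by step were counted again without single libraries, a choice made after seeing the data. Without the shallow m6A-IP 12, 53.8% of broken members were enriched and 20.1% depleted, and 17.3% and 58.4% of stacked members. All structures then gave 30.4% and 41.1%. Without m6A-IP 11 it was 36.9% and 38.2% of broken members and 12.4% and 71.1% of stacked members, where all structures gave 22.9% and 56.0%. Without input 11 it was 5.18% and 2.16% of broken and 0.311% and 8.82% of stacked members, where all structures gave 2.36% and 5.71%. Without input 12 it was 4.97% and 2.38%, and 0.248% and 8.51%, where all structures gave 2.32% and 5.41%. Each of these fits had 1 library in an arm, which was taken to vary like the 2 libraries of the other arm. The input libraries differ little from each other and the m6A-IP libraries more, so the fits make many or few calls, and their percentages are given as a description.

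The contrast between broken and stacked steps was also present among stems of equal length, up to 8 pairs. With 4 pairs in the whole hairpin, broken minus stacked was 0.72 in reaction 11 and 0.68 in reaction 12. It was 0.75 and 0.71 with 5 pairs, 0.74 and 0.67 with 6, 0.64 and 0.59 with 7, and 0.49 and 0.52 with 8. With 3 pairs, where 7 broken and 8 stacked members were compared, it was 0.42 and 0.43. With 9 or more pairs only 2 broken members remained, with 3 reads in m6A-IP 12, and the values of 0.38 and -0.65 took opposite signs (p = 1, exact permutation test).

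The shape of the break on the outer side also separated the members. Unless stated, calls here and in the paragraphs below were made with size factors. With these, 12.5% of all structures were enriched and 27.2% depleted. The 153 members with 1 unpaired base on each strand (G16 on the closing strand, facing 1 base of the 5′ flank) had log2 ratios of 0.34 and -0.09 and were enriched in 48 cases (31.4%) and depleted in 21 (13.7%). The 77 members with 2 unpaired bases on each strand had 0.27 and -0.16, with 20 enriched (26.0%) and 5 depleted (6.49%). The 44 members in which a single base of the 5′ strand bulged had a summed ratio of like size, 0.32 and -0.07, but 2 were enriched (4.55%) and 3 depleted (6.82%). High ratios also stood in wide breaks. The 58 members with 5 or more unpaired bases after position 15 on the closing strand had 0.71 and 0.48, with 27 enriched (46.6%) and 1 depleted (1.72%). Breaks of unequal size did not all lie high. The 10 members with 2 unpaired bases on the 5′ strand and 3 on the closing strand had -0.38 and -0.88, with 70 reads in m6A-IP 12.

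On the loop side, the members were divided by which of U12, A13 and C14 were paired with the 5′ flank. In 1182 members only C14 of the 3 was paired. These had log2 ratios of -0.06 and -0.41, with 147 enriched (12.4%) and 252 depleted (21.3%). Of all structures 12.5% were enriched and 27.2% depleted, so the enriched share of this class was near the background. In 264 members A13 and C14 were both paired, and the ratios were -0.80 and -1.15, with 9 enriched (3.41%) and 150 depleted (56.8%). The members with A13 paired beside C14 thus differed from those with C14 alone by -0.74 in both reactions. In 563 members none of the 3 was paired, and in 562 of them A15 closed the hairpin loop. These had -0.45 and -0.81, with 15 enriched (2.66%) and 276 depleted (49.0%) and differed from the members with C14 alone paired by -0.39 and -0.40. In 67 members all 3 were paired, with ratios of 0.03 and -0.36, so the ratio did not go down with each further base of the 3.

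Both sides of the pair were then crossed. With C14 alone paired, broken steps were higher than stacked ones by 0.41 in reaction 11 and 0.40 in reaction 12. With A13 and C14 paired the difference was 0.92 and 0.91, and with U12, A13 and C14 paired it was 0.88 and 0.69. The lowest large class was that of A13 and C14 paired and a stacked step, where 168 members had ratios of -0.92 and -1.27, 0 were enriched and 128 depleted (76.2%). Within this class, members with 8 or more pairs differed from those with up to 5 by -0.30 and -0.13. The 6 members with 4 pairs had -0.79 and -1.20 and the 39 with 8 pairs had -1.15 and -1.32. The highest of the larger classes was a broken step with C14 alone paired, where 346 members had 0.30 and -0.05, with 98 enriched (28.3%) and 24 depleted (6.94%).

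In 8 members A15 formed an isolated pair that closed the loop, with unpaired bases on the other side as well. They were singled out after their values were seen, since they went against the other broken members. Their summed log2 ratio was -1.66 and -1.74, and 7 of the 8 were depleted. The summed value rested on 1257 reads in input 11 and 28 reads in m6A-IP 12.

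Stem length showed a graded pattern. The 19 members with 3 pairs had log2 ratios of 0.17 and -0.20. The ratios were -0.20 and -0.56 for the 308 members with 5 pairs, -0.40 and -0.76 for the 592 with 7, -0.60 and -0.97 for the 405 with 8, and -0.92 and -1.18 for the 133 with 9 or more. No member with 9 or more pairs was enriched and 76 of them were depleted (57.1%). Members with 8 or more pairs were lower than those with up to 5 by a log2 difference of -0.53 and -0.51. Among stacked members with A15 at the loop, this difference was -0.77 and -0.79, and among those with C14 alone paired it was -0.46 and -0.47. The 100 members with 4 pairs had -0.34 and -0.71, lower than those with 5, but this held for the sums alone. Their median log2 fold change per structure was 0.14, against -0.0045 at 3 pairs and 0.00063 at 5.

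The number of pairs between position 15 and the open end gave the same direction at its upper end. The 517 members with 5 pairs outside that of position 15 had -0.32 and -0.67, the 428 with 6 had -0.55 and -0.91, and the 234 with 7 or more had -0.94 and -1.27. Of these 234 members 0 were enriched and 141 were depleted (60.3%). From 1 to 4 outer pairs the ratios of reaction 11 lay between -0.35 and -0.09 in no order.

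By the unbroken run of pairs that held position 15, runs of 2 and 3 pairs stood above longer ones and above isolated pairs. The 9 members in which the pair of 15 stood alone had the lowest log2 ratios of these classes, -1.73 and -1.78, with 0 enriched and 8 depleted, on 29 reads in m6A-IP 12. Runs of 2 pairs (514 members) had 0.21 and -0.14, with 113 enriched (22.0%) and 83 depleted (16.1%), where all structures gave 12.5% and 27.2%. Runs of 3 pairs (766 members) had 0.07 and -0.29, with 57 enriched (7.44%) and 174 depleted (22.7%). Runs of 4 pairs (557 members) had -0.42 and -0.78, with 10 enriched (1.80%) and 276 depleted (49.6%). Runs of 5 pairs (188 members) had -0.43 and -0.79, with 1 enriched and 121 depleted (64.4%). Runs of 6 or more pairs (71 members) had -0.76 and -1.05, with 0 enriched and 54 depleted (76.1%). Single members departed from this order. R1, R2, R3 and R5 hold runs of 2 pairs, but so does F5, and the enriched R4 and H hold runs of 4 and 5. A broken step ends the run at position 15, so the classes by run overlap with those by step.

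Counting breaks along the whole stem gave the reverse order. The same members are sorted again here, and a broken step is itself 1 of these breaks. The 110 members with an unbroken stem had -0.24 and -0.60, with 1 enriched and 79 depleted (71.8%). The 1421 members with 1 bulge or interior loop had -0.17 and -0.53, with 76 enriched (5.35%) and 589 depleted (41.4%). The 568 members with 2 breaks had 0.35 and 0.05, with 101 enriched (17.8%) and 48 depleted (8.45%). The 6 members with 3 breaks had 1.85 and 1.58 and 3 of them were enriched, on 30 reads in m6A-IP 12. By the share of the nonamer that was paired, 62 members with 2 paired bases had 0.78 and 0.53, with 30 enriched (48.4%) and 1 depleted. The 425 members with 3 paired bases had 0.18 and -0.19, the 551 with 5 had -0.34 and -0.69, and the 74 with 7 had -0.73 and -1.06, of which 2 were enriched and 50 depleted (67.6%).

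The size of the hairpin loop made little difference. Loops of 3, 4, 5 and 6 nt had log2 ratios in reaction 11 of -0.24, -0.19, -0.18 and -0.14, and in reaction 12 of -0.60, -0.55, -0.54 and -0.50. The position of the U that paired with A15 gave a wider range. It stood at positions 7 to 9 in 1386 members (65.8%). The 18 members with the partner at position 1 had -0.04 and -0.42, and those with it at position 8 or 9 had -0.09 and -0.45, and -0.09 and -0.47. Between them the level was not flat. The 25 members with the partner at position 2 had -0.36 and -0.72, with 14 depleted (56.0%). From positions 3 to 7 the ratios of reaction 11 lay between -0.28 and -0.11. The 172 members with the partner at position 10 had -0.44 and -0.77. With the partner at position 11, where U12 to C14 form a 3-nt loop, the 186 members had -0.63 and -0.999, with 3 enriched and 94 depleted (50.5%).

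The 5 members with the highest fold change all had a broken step after A15, as did 463 of the 2105 members. R1 alternates pairs with 1-by-1 interior loops, so that C14, A15, A17 and A19 are paired and G16 and G18 are not. Its values were 4.67 and 7.02 in input and 53.3 and 55.4 after m6A-IP, a log2 fold change of 2.46 ± 0.31 (SE, adjusted p = 0.014 in limma's test). These rested on 9, 12, 116 and 8 reads. R2, in which G16 and A17 face 2 unpaired bases, had 2.59 and 4.68 against 23.0 and 48.5, with a log2 fold change of 2.17 and 7 reads in m6A-IP 12. Its adjusted p was 0.14 without input 11 and 0.11 without input 12.

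R3 had 14 and 18.7 in input against 58.8 and 110.9 after m6A-IP, a log2 fold change of 2.02. R4, whose run of 4 pairs from U12 to A15 is followed by unpaired G16 and G18, had 36.8 and 42.1 against 202 and 139, a log2 fold change of 1.96. R5, with 6 unpaired bases after A15, had 9.85 and 13.4 against 40.9 and 76.2, a log2 fold change of 1.88. In each of the 5 both m6A-IP values stood above both input values, which the way they were selected required. The 2 m6A-IP values were closest in R1.

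The 5 members with the lowest fold change all had a stacked step after A15, as did 1610 of the 2105 members. F1 had values of 64.8 and 70.7 in input, 16.5 in m6A-IP 11 and no read in m6A-IP 12, with a log2 fold change of -2.81 ± 0.68 (SE). F2 had 83.5 and 88.3 against 35.4 and no read, F4 had 57.6 and 69.0 against 18.8 and no read, and F5 had 68.5 and 64.9 against 26.6 and no read. Their fold changes of -2.68, -2.64 and -2.51, and that of F1, depend on the 5 that was added to each value before the log. That of F1 was -4.04 with 1 added and -1.70 with 20 added. F3, with 239 and 243 against 74.4 and 13.9, had a log2 fold change of -2.67 and 2 reads in m6A-IP 12. F2 and F5 lost their call with 1 in place of 5 added (adjusted p of 0.12 in both), and F1 and F4 without input 12 (0.11 and 0.16).

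Among the deep members, L had the lowest fold change. It is an unbroken stem of 6 pairs around a 6-nt loop, in which A13 to G18 form the closing strand. Its values were 4721 and 4724 in input and 1198 and 950 after m6A-IP, a log2 fold change of -2.14 ± 0.18 (SE, adjusted p = 0.014 in limma's test). Both m6A-IP values were far below both input values, on 2609 and 137 reads. H had the highest fold change at this depth. In it U12 to A15 are paired to the 5′ flank, G16 is unpaired opposite 1 base, and A17 closes the stem with a single pair. It had 726 and 733 in input and 1598 and 1081 after m6A-IP, a log2 fold change of 0.84 ± 0.22 (SE, adjusted p = 0.041 in limma's test). Both input values lay below 1000, so H passed the cut on the mean only through its m6A-IP values. Its adjusted p was 0.32 without either input library.

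Beside M1, the deep members nearest to no change were 2 hairpins of 5 pairs with a single bulged base on the 5′ strand across from the step between A15 and G16. The one with a 4-nt loop had values of 1071 and 1060 in input and 1193 and 950 after m6A-IP. The one with a 5-nt loop had 970 and 1013 against 1244 and 776. In both, the m6A-IP values lay on either side of the input values. Scaled to totals, the one with a 4-nt loop passed as enriched, with a log2 fold change of 0.23 (adjusted p = 0.021 in limma's test).

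Opening the pair of position 15 and leaving every other pair in place gave higher values in most cases. For 770 members the table also held the structure that differs only by this pair. The summed log2 ratio was -0.34 and -0.69 with the pair and -0.13 and -0.47 without it, a difference of 0.20 in reaction 11 and 0.22 in reaction 12. The opened structure had the higher log2 fold change in 571 of the 770 couples (74.2%), with a median difference of 0.33. The RNAs of the 2 members of a couple differ in sequence as well as in fold, since the opened structure no longer requires a U across from A15.

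The outcome depended on what opening turned the pair into. In 88 couples A15 became part of a 1-by-1 interior loop between flanking pairs, with a difference of 0.55 and 0.52, and the opened structure was higher in 83. In 552 couples A15 joined the hairpin loop, with a difference of 0.22 and 0.26, and it was higher in 407. In 16 couples A15 became part of a tail, with 0.14 and 0.19, and it was higher in 12. In 114 couples A15 joined an existing bulge or interior loop, where the difference was -0.04 and -0.06 and the opened structure was higher in 69.

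The 3 couples with the most input reads show both outcomes. Each line gives what the fold fixes, with paired positions in capitals.
couple 1 with the pair of 15: nnnnNUNUnnnuacAGAGaannnnnnnnnn
couple 1 opened: nnnnNUNnnnnuacaGAGaannnnnnnnnn
couple 2 with the pair of 15: nUGUNNnnnnNUACAgagaannnnnnnnnn
couple 2 opened: nnGUNNnnnnNUACagagaannnnnnnnnn
couple 3 with the pair of 15: nnnnnNUNUnnuacAGAGaannnnnnnnnn
couple 3 opened: nnnnnNUNnnnuacaGAGaannnnnnnnnn
In couple 1, A15 closes a 6-nt loop below G16 to G18. The paired structure had values of 4092 and 4002 in input and 2476 and 1670 after m6A-IP, and the opened one had 46092 and 45340 against 41526 and 33158. Their log2 fold changes were -0.99 and -0.30. Couple 3 is the same stem with a 5-nt loop, and its log2 fold changes were -1.21 with the pair and -0.38 without it. In couple 2, A15 pairs at the open end of a 5-pair stem, and opening it leaves a 4-pair stem with A15 in the tail. The paired structure had 6532 and 6695 against 8880 and 6619, and the opened one 28928 and 29067 against 37148 and 29138. These log2 fold changes, 0.21 and 0.18, were nearly equal.

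The opened structure also stood higher at positions 16 to 20 of the closing strand, in sums, medians and counts, so this was not particular to position 15. The same comparison over all single hairpins gave a log2 difference of 0.02 and 0.06 at position 14, 0.16 and 0.15 at position 16, 0.41 and 0.39 at position 17, 0.13 and 0.13 at position 18, 0.41 and 0.43 at position 19, and 0.23 and 0.25 at position 20. At position 14 the measures took opposite directions, since the sums were higher but the opened structure was higher in 156 of 384 couples (40.6%), with a median difference of -0.10. At positions 16 to 20 it was higher in 59.3%, 76.1%, 61.2%, 80.9% and 71.7% of couples, with medians of 0.20, 0.47, 0.21, 0.57 and 0.33. The differences at positions 17 and 19, both adenosines of the nonamer, were larger than the 0.20 and 0.22 at position 15 by more than the gap between the reactions.

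A hairpin shape could also be followed as it moved along the RNA, which changes the bases of the nonamer that pair and holds the shape constant. Of the shapes, 1025 had at least 1 position with A15 on the closing strand and at least 1 with A15 unpaired. Against the closing-strand position of the same shape, the log2 fold change was higher with A15 on the opening strand in 467 of 595 shapes (78.5%), with a median difference of 0.60 in reaction 11 and 0.58 in reaction 12. With A15 in a 1-nt bulge it was higher in 50 of 54 shapes (92.6%), with 1.15 and 1.27, and with A15 in another bulge or an interior loop in 150 of 209 (71.8%), with 0.49 and 0.47. With A15 in a tail it was higher in 22 of 28 shapes, with 0.72 and 0.73. With A15 in the hairpin loop it was higher in 395 of 967 (40.8%), with -0.11 and -0.15, so the closing-strand position was there the higher one more often than not.

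The 4-pair hairpin with a 4-nt loop shows this at single positions, and its sequences are printed at the 7 starts with A15 in the stem and at start 17.
start 4: nnnUGUNnnnnUACAgagaannnnnnnnnn
start 5: nnnnNUGUnnnuACAGagaannnnnnnnnn
start 6: nnnnnUNUGnnuaCAGAgaannnnnnnnnn
start 7: nnnnnnNUNUnuacAGAGaannnnnnnnnn
start 13: nnnnnnnnnnnuACAGagaaNUGUnnnnnn
start 14: nnnnnnnnnnnuaCAGAgaanUNUGnnnnn
start 15: nnnnnnnnnnnuacAGAGaannNUNUnnnn
start 17: nnnnnnnnnnnuacagAGAAnnnnUUNUnn
With the hairpin starting at position 4, A15 was the last base of the stem, and the values were 5298 and 5270 in input and 6992 and 5198 after m6A-IP. Moved by 1 nt, with A13 to G16 paired, it had 25915 and 25610 against 14744 and 11069, a log2 fold change of -1.01 (adjusted p = 0.030 in limma's test). At start 6, with C14 to A17 paired, it had 15391 and 15353 against 11454 and 8775, a log2 fold change of -0.62 (0.079). At start 7, where A15 closed the loop, it had 3272 and 3282 against 1941 and 1781, a log2 fold change of -0.82 (0.021). The m6A-IP values lay below the input values in both reactions at starts 5, 6 and 7 and on either side of them at start 4.

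With A15 on the opening strand the same hairpin had values on both sides of no change. At start 13 it had 4201 and 4188 against 4057 and 3209, a log2 fold change of -0.22 (adjusted p = 0.40 in limma's test). At start 14 it had 35991 and 34852 against 25947 and 19892, a log2 fold change of -0.64 (0.094), and at start 15 it had 7451 and 7399 against 12873 and 9468, a log2 fold change of 0.57 (0.097). With A15 in a tail the 7 starts ranged widely. The hairpin upstream of A15 had log2 fold changes of -0.65, -0.46 and 0.18 at starts 1, 2 and 3. Downstream of A15 it had 0.70, 2.45, 1.21 and 0.41 at starts 16 to 19. The highest of these, start 17 with a stem of A17 to A20, also had the lowest input values, 155 and 171 against 1118 and 742 (adjusted p = 0.014). The 3-pair hairpin with a 4-nt loop had a log2 fold change of -1.46 (adjusted p = 0.014) with A13 to A15 paired, from 381 and 413 in input to 160 and 125 after m6A-IP. With C14 to G16 paired it is M2, which did not pass the test with size factors.

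Against single hairpins with A15 on the opening strand, the closing-strand hairpins were lower. The 4724 opening-strand structures had log2 ratios of 0.23 and -0.14, with 653 enriched (13.8%) and 729 depleted (15.4%). Of all structures 12.5% were enriched and 27.2% depleted, so their enriched share was near the background. The difference between closing and opening strand was -0.43 in reaction 11 and -0.41 in reaction 12. Within hairpins of equal stem length it was -0.66 and -0.66 at 4 pairs, -0.59 and -0.58 at 5, -0.52 and -0.46 at 6, -0.46 and -0.43 at 7, -0.46 and -0.45 at 8, and -0.48 and -0.35 at 9 or more. On the opening strand, where the step from A15 to G16 faces the loop, 100 broken structures were higher than 3145 stacked ones by 0.32 and 0.28. The contrast on the closing strand exceeded this by 0.26 in both reactions. The step from C14 to A15, which faces the open end there, had the opposite sign, with 1087 broken structures lower than 3615 stacked ones by a log2 difference of -0.43 and -0.42 (-0.06 and -0.04 in the median over structures). In the closing-strand hairpins this step gave summed values of either sign. There, 52 broken against 1491 stacked members gave -0.02 and 0.07 (p = 1, exact permutation test). In the median over structures the broken members were lower in both reactions, by -0.17 and -0.12.

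Hairpins with a 1-nt bulge stood above the members in both reactions. The 194 single hairpins with A15 in a 1-nt bulge had log2 ratios of 1.48 and 1.12, and 93 were enriched (47.9%) and 7 depleted (3.61%). The closing-strand members were lower than these by a log2 difference of -1.67 in both reactions, and by -0.95 and -0.98 in the median over structures. The 243 closing-strand hairpins with a 1-nt bulge at position 16 or 17, which the rule left out, had 0.15 and -0.17. Of these 33 were enriched (13.6%) and 29 depleted (11.9%). All structures gave 12.5% and 27.2%, so the enriched share of the 243 was near the background. The members were lower than these 243 hairpins by -0.34 and -0.38. Against all 266 single hairpins with a 1-nt bulge at 16 or 17, which had 0.62 and 0.30, the difference was -0.81 and -0.85.

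Across the RNA, position 15 was not the lowest of the closing strand. Among 22 positions with at least 20 structures each, hairpins paired on the closing strand had mean log2 ratios from -0.75 at position 20 to -0.07 at position 12, and position 15 was the eighth lowest at -0.36. The structures of neighbouring positions are in large part the same hairpins. The contrast between a broken and a stacked step on the outer side was widest at position 15, with 0.57 and 0.54 when hairpins with a bulge at 16 or 17 are included, of 11 positions from 11 to 21. It was 0.49 and 0.43 at position 19, 0.34 and 0.34 at position 16, 0.31 and 0.33 at position 14 and 0.30 and 0.28 at position 18. At positions 11, 12, 13 and 17 it had the other sign, with means of -0.16, -0.34, -0.23 and -0.22, but this held for the sums alone. The median log2 fold change of broken structures was the higher one at each of these positions. It was -0.05 against -0.13 for stacked ones at position 11, and -0.09 against -0.12 at position 12. At position 13 it was -0.48 against -0.57, and at position 17 -0.494 against -0.502.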

How the data were processed

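In vitro methylation of the randomized library was measured by sequencing 2 input and 2 m6A-IP libraries, from reactions 11 and 12. Per the study's methods, adaptors were removed with cutadapt 1.9.1, reads of 30 nt with an intact nonamer at positions 12 to 20 were kept, and the minimum free energy structure of each was predicted with RNAfold (version not given in the sources used here). The folds are therefore predictions and were not measured, and each value sums RNAs of different sequence. The deposited values are a signal in normalized reads, which the authors made by summing the reads of each structure and dividing them by a DESeq2 1.18.1 size factor of the library. The table also holds the authors' own comparison (mean, log2 fold change, its error, p-values and adjusted p-values), which was not used.

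Reads were calculated back from the step between values and 100% came out whole within 0.01 reads. A separate check of units did not accept 3 of the 4 libraries as whole reads. The planned count models were therefore not run on them. Over the table, depth was at least 18106811 reads in 3 libraries and 1154715 in that of m6A-IP, reaction 12. For the test, 5 was added, log2 was taken, and limma 3.58.1 (R 4.3.3, moderated test with a mean-variance trend) compared the 2 m6A-IP with the 2 input libraries over all 36835 structures with no filter, adjusted by Benjamini-Hochberg, at a threshold of 0.1. Fold changes are on the log2(value + 5) scale, which understates the change of rare structures. The step was tested on simulated data. Classes of structures were compared by the log2 ratio of their summed values within each reaction, with exact permutation tests over the 4 libraries (two-sided, Python 3.11.15, scipy 1.17.1). Structures are not replicates, and members that share pairs share bases.

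Input and m6A-IP libraries of 1 number came from 1 reaction, per the methods. Their deviations from the group means had a correlation of 0.02 over all structures and -0.02 over the 1243 with a mean of at least 1000. Named structures were the 5 highest and 5 lowest fold changes past the threshold with both m6A-IP values on 1 side of both input values, the 3 most abundant members, the highest, the lowest and the 3 nearest to zero at a mean of at least 1000, and the 3 couples and 2 shapes with the most input. The members, classes and lists were chosen with earlier results of these data known. Alternatives were other pseudocounts (1 and 20), scaling by totals of the table, a filter at a mean of 50, a replicate block, array weights, a threshold of 0.05, leaving out each library, and medians in place of sums. The libraries of mouse embryos in the same series were not used here.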

Additional observations from a re-analysis of the deposited data

How the results depend on the processing

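Depth limited single structures, since m6A-IP 12 held a median of 7 reads per member. The number of enriched members was 181, and 420 with libraries scaled to totals, 111 at a threshold of 0.05, and 27 to 546 with each library left out in turn. Depleted members numbered 716, and 455 at a threshold of 0.05 and 150 to 1337 with each library left out. Of all structures 7.77% were enriched and 17.2% depleted at a threshold of 0.05, and 2.32% to 30.4% and 5.41% to 56.0% with each library left out. With reaction as a replicate block there were 174 enriched and 744 depleted members, and the block changed the call of 0 of the 17 named structures tested. Under that block 11.6% of all structures were enriched and 29.5% depleted. In the main fit these shares were 12.5% and 27.2%, and with libraries scaled to totals 22.5% and 24.8%. Other pseudocounts, the filter on low values and array weights kept both counts within 1.5 times. As medians over structures in place of sums, the log2 differences were -0.33 from the opening strand, -0.96 from a 1-nt bulge at 15, -0.39 from closing-strand and -0.46 from all hairpins with a 1-nt bulge at 16 or 17, 0.72 for broken minus stacked steps, -0.65 for A13 and C14 paired and -0.58 for A15 at the loop against C14 alone, -0.78 for 8 or more against up to 5 pairs, and 0.33 for opening the pair of 15. At a mean of at least 50, A15 at the loop gave -0.36 and stem length -0.55. None of these class differences changed sign in these alternatives or with 1 reaction left out. Of the named structures, 5 changed the sign of a log2 fold change near 0. With libraries scaled to totals, M1, M2, M3 and the bulged hairpins with a 4-nt and a 5-nt loop had 0.23, 0.15, 0.40, 0.23 and 0.22, and all but the last passed as enriched. With each library left out in turn, M1 ranged from -0.20 to 0.20, M2 from -0.27 to 0.10, M3 from -0.026 to 0.36, and the bulged hairpins from -0.17 to 0.16 and from -0.35 to 0.33. Count models (edgeR and DESeq2) on the recovered reads were planned and not run. Antibody recovery without METTL16 was not tested.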
